A study of Drosophila melanogaster with 2 samples.

Results

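The Hippo pathway genes described here are the 10 genes hpo, sav, wts, mats, yki, sd, ex, kibra, ft and ds of Drosophila melanogaster. They were taken from 13945 protein-coding genes as a named list, and a binding site was assigned to one of them when its summit lay inside the gene or within 10 kb of it. By this rule 67 of 11045 peaks belonged to the list. The peaks come from chromatin immunoprecipitation and sequencing (ChIP-seq) of gem, a transcription factor of the CP2 branch of the family that includes Grainyhead. The only group was whole embryos of both sexes, 0 to 24 h old, from a stable transgenic line in which gem carries GFP at its C-terminus. Antibody to GFP was used, chromatin was sonicated to a size range of 200 to 800 bp, and 2 biological replicates, numbered 1 and 4 in the labels, were present. All embryos carried the tagged protein, and no second condition and no library without the tag was analysed here, so how much of a peak's signal would appear without tagged gem is not known. Whole embryos of all stages up to 24 h were pooled, so a peak cannot be assigned to a tissue or a time.

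The Hippo pathway limits tissue growth. In its core, the kinase Hpo, with the scaffold Sav, activates the kinase Wts, with its partner Mats, and Wts phosphorylates the coactivator Yki and keeps it out of the nucleus. Free Yki binds the TEAD-family DNA-binding protein Sd and raises growth and survival genes. At the apical cell cortex Ex and Kibra promote activity of the core, and the giant cadherins Ft and Ds, which bind each other between neighbouring cells, feed into the pathway and into planar cell polarity. ex is itself a well known target of Yki.

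The sequence at 9 of the sites is given on the plus strand, 101 bases centred on the summit and read 5' to 3' from the release 6 genome. The first 5 are the promoter sites of wts, kibra, ex, ft and sd, shown because the text turns on which genes had one. The promoter site of yki, the strongest own promoter site of the list, is not shown. The next 3 are strong sites of wts, kibra and ds. The last is an ex site that only the replicates' own lists held. Capitals mark matches to any of 11 short motifs described with the motif results.
wts promoter peak, chr3R:30806790-30806890: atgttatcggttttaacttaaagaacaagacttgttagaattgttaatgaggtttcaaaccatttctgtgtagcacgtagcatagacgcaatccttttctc
kibra promoter peak, chr3R:14724342-14724442: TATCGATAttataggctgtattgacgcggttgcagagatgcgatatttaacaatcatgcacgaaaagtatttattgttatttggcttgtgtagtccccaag
ex promoter peak, chr2L:430984-431084: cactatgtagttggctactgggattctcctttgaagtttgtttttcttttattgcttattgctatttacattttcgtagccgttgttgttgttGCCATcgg
ft promoter peak, chr2L:4222178-4222278: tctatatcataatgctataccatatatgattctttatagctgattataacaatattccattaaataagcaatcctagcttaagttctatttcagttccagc
sd promoter peak, chrX:15803919-15804019: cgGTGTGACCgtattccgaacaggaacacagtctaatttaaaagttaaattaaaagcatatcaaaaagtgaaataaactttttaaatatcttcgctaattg
wts strongest intronic peak, chr3R:30797450-30797550: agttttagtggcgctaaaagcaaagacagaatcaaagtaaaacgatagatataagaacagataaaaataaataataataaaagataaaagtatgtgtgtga
kibra strongest peak, chr3R:14714730-14714830: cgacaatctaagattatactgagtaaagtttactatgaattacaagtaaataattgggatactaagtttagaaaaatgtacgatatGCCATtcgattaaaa
ds strongest peak, chr2L:715515-715615: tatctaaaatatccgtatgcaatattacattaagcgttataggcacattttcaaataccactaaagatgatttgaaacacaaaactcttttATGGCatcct
ex intronic site listed in both replicates, chr2L:442059-442159: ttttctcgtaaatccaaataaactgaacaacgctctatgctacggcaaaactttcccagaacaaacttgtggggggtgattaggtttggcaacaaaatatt
Most of these windows were rich in A and T, and 5 of the 9 held a motif while 4 held none. The GC content ran from 25.7% at the intronic wts site to 38.6% at the ex site of the replicates.

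Peaks were read from 4 lists: 30000 peaks each for replicate 1, replicate 4 and both pooled, and 11045 in a list filtered by irreproducible discovery rate (IDR), which scores whether a peak holds its rank from one replicate to the other. The 11045 IDR peaks were exactly the 11045 pooled peaks of highest signal, and their signal, the value the authors' peak caller gave each peak, ran from 187 to 17818 with a median of 432. Because its scaling is not stated, signal was compared within a list only. Exceptions are a ratio between the replicates and a limit in the closing section. Read depth is unknown from these lists. A peak is called a promoter peak when its summit lay within 500 bp of an annotated transcription start site (TSS), and the own promoter of a gene means its own TSS.

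All 10 genes had at least 1 IDR peak in the gene or within 10 kb, but the counts were very uneven. kibra had 18 and wts 16, together 34 of the 67, followed by ex with 8, ft with 7, ds with 6, yki with 5, sd with 3, sav with 2 and hpo and mats with 1 each. Having a peak by this rule was common, since 74.6% of protein-coding genes had one. The high counts were not: 0.301% of protein-coding genes had at least the 18 peaks of kibra and 0.480% at least the 16 of wts, against 4.85% for the 8 of ex and 74.6% for the single peaks of hpo and mats. The median was 5.50 peaks over the 10 genes and 2 over all protein-coding genes.

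Long genes have more space for peaks, so the counts were also set against window length. The 10 windows together held 1.705 IDR peaks per 10 kb over 392930 bp, and the 6 chromosome arms 0.825. By gene the density was highest at wts, with 4.32 per 10 kb, and at kibra, with 3.86. yki had 2.22, ex 2.13, ft 1.61 and sav 0.88, while sd (0.69), ds (0.63), mats (0.45) and hpo (0.44) lay below the value for the arms. Without wts and kibra the other 8 windows held 1.07 per 10 kb, and the 2 windows alone held 4.07. No test was made of these densities, and the mappable share of each window is not known.

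**Figure D1:**
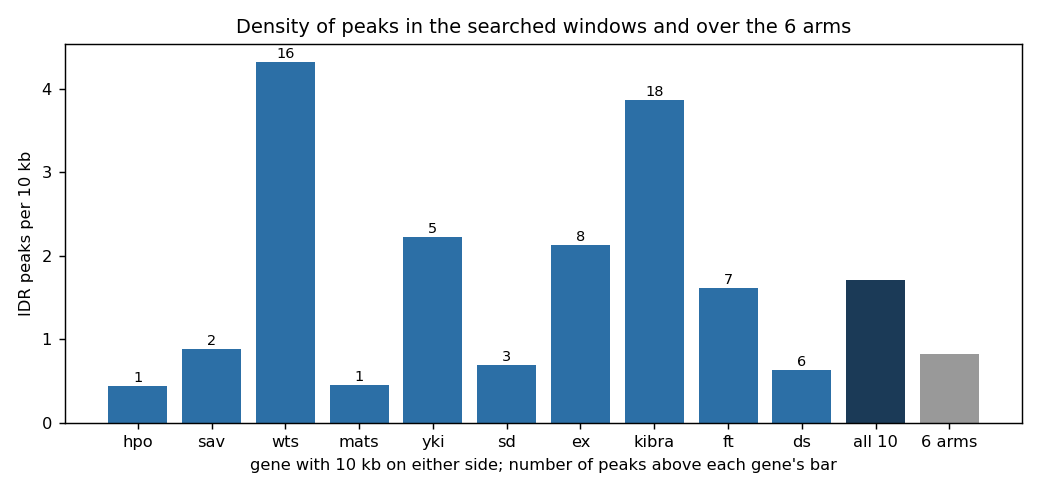
Number of IDR peaks per 10 kb (bars, y axis) in the window of each gene, in all 10 windows and over the 6 chromosome arms, with the count of peaks above each gene's bar. The bars of wts (4.32) and kibra (3.86) stand well above the other genes, and 4 genes lie below the value of 0.825 for the arms.

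The peaks themselves were of ordinary strength for this factor. Their signal ran from 205 to 2977 with a median of 427, against 432 over all IDR peaks. Among the 1000 strongest of the 11045 IDR peaks were 3 of the 67, and among the stronger 5522 were 33. Of the 67, 21 (31.3%, exact 95% interval 20.6 to 43.8) lay within 500 bp of a TSS of any gene, against 30.4% of all IDR peaks, and 37 (55.2%) had the summit in an intron, against 53.8%. None was in a coding exon. Promoter peaks of the list had a median signal of 397 and distal ones of 445, whereas over all IDR peaks the promoter median, 585, was above the distal median, 394. Within the list the 6 own promoter peaks had a median of 503 and the 15 at promoters of other genes 353. These medians were not tested against each other.

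**Figure D2:**
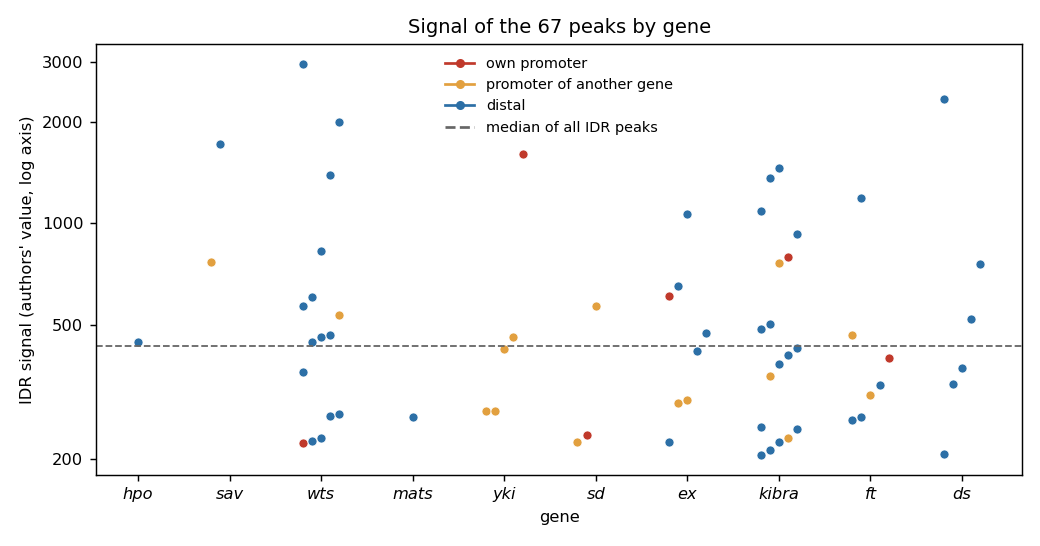
Signal of each of the 67 IDR peaks on a log axis, by gene, coloured by position, with the median of all IDR peaks as a dashed line. Peaks above 1000 occur at sav, wts, yki, ex, kibra, ft and ds, and every gene with more than 3 peaks has some above and some below the dashed line.

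An own promoter peak was present at 6 of the 10 genes, namely wts, yki, sd, ex, kibra and ft, where 24.6% of protein-coding genes had one. All 6 summits lay upstream of the TSS, by 131 to 432 bp, and their signals ran from 223 at wts to 1600 at yki. Of the 6, 4 had the gene's own TSS as the nearest one, while the yki summit was nearer to Gpat4 and the sd summit nearer to PGRP-LE. sd has 7 annotated TSSs and so more chances of such a peak than the other genes of the list, which have 1 or 2. The genes hpo, sav and mats had no own promoter peak in the IDR, pooled or either replicate list, and their nearest IDR summits were 5229, 6296 and 2846 bp from a TSS of theirs. ds had none in the IDR and replicate 4 lists. It had a weak one in the pooled list (76.1, 103 bp from its TSS) and in replicate 1 (52.7, 78 bp). The replicate 4 site inside mats described with the core genes was 3 bp past the promoter limit. A promoter without a listed peak is not shown to be unbound.

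**Figure D3:**
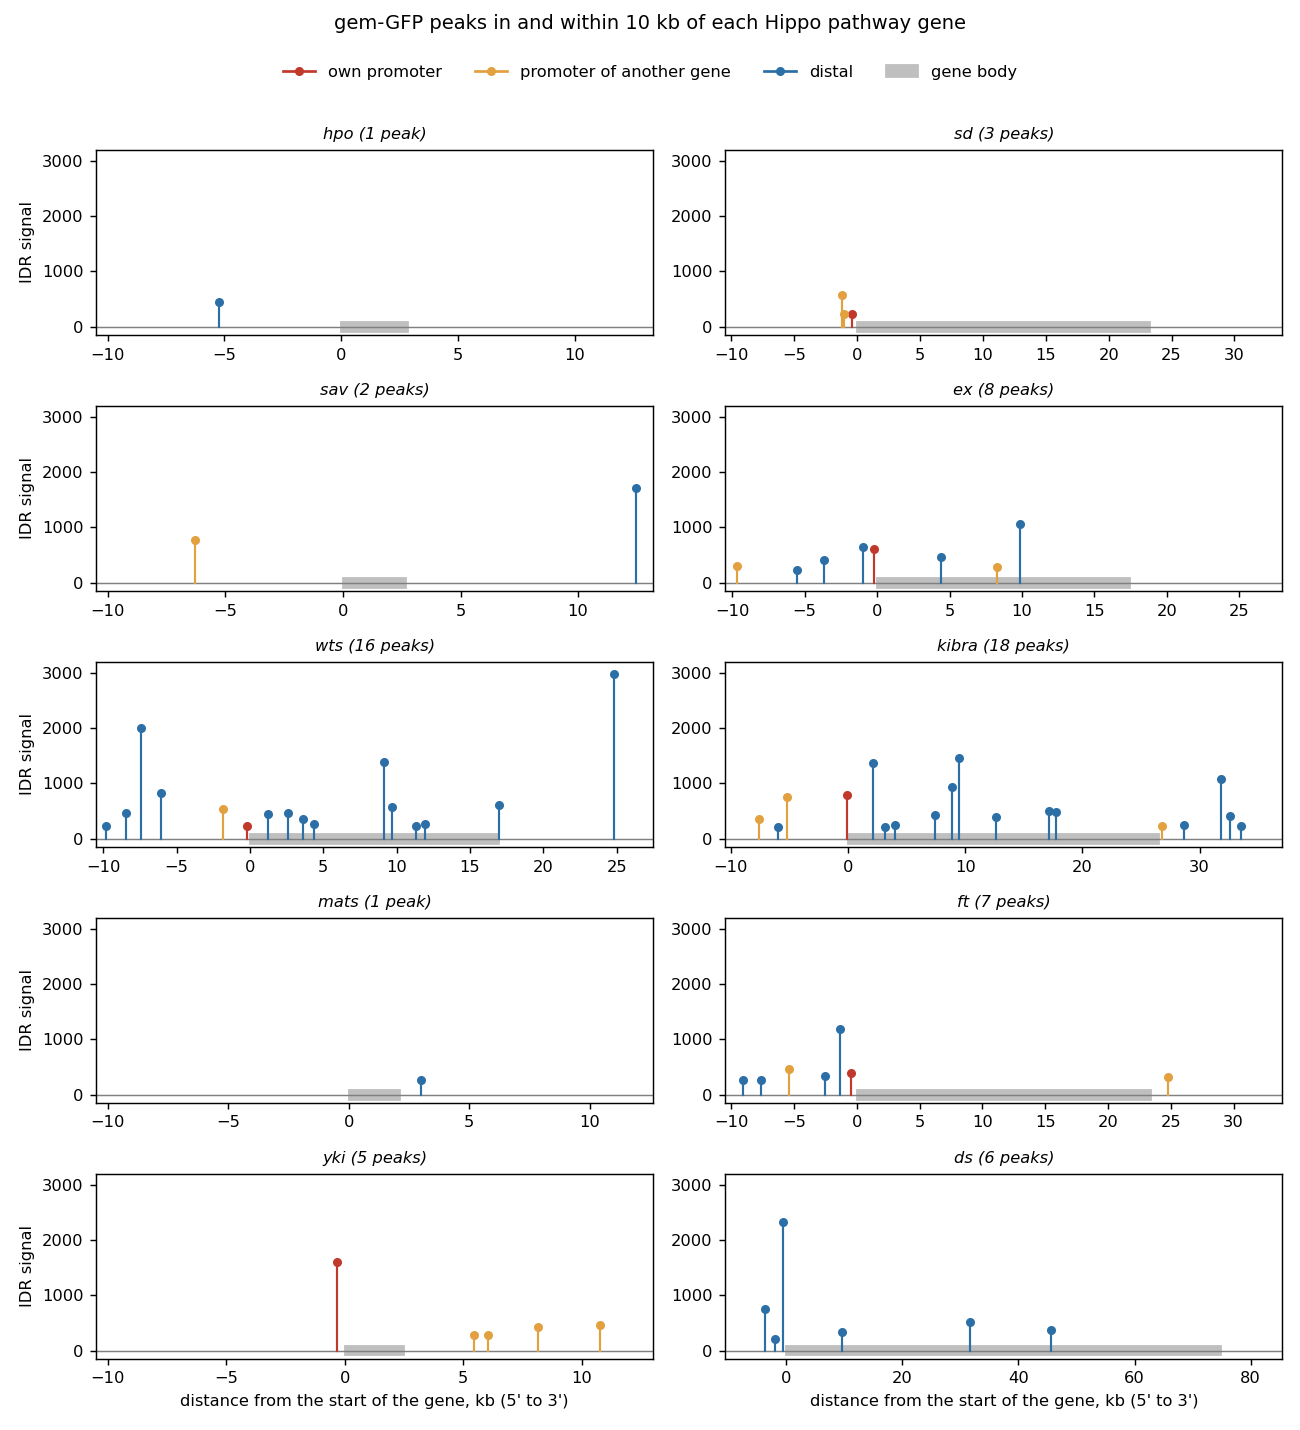
Position of each IDR peak along its gene, in kb from the start of the gene with transcription to the right, and its signal as height. Grey bars are gene bodies and colours separate own promoter, promoter of another gene and distal peaks. The peaks of wts and kibra are spread over introns and flanks, those of ft lie outside the gene body, and those of sd crowd just upstream of the gene.

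Within the core cassette, wts carried 16 of the 20 peaks. The gene (FBgn0011739) runs from 30789625 to 30806619 on the minus strand of 3R. Inside it lay 9 summits: 4 in its first intron, 4 in its second and 1 in its 3' UTR. The strongest of these, in the second of 7 introns at 30797324 to 30797664, had a signal of 1388, with 1001 in replicate 1 and 390 in replicate 4, ranks 1451 and 1508 of their lists. The promoter peak, 221 bp upstream at 30806638 to 30807041, was the weakest of the 16, at 223, with 131 in replicate 1 and 88.8 in replicate 4. Strong sites in this window therefore lay away from the wts promoter.

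The strongest peaks of the wts window fell in neighbouring genes. The peak of 2977, rank 401 of 11045, was at 30781560 to 30781977 in an intron of zfh1, which encodes a zinc finger homeodomain transcription factor, 1488 bp from a zfh1 TSS and 7855 bp beyond the end of wts. It had 2236 in replicate 1 and 738 in replicate 4. The next, of 1997 at 30813842 to 30814217, lay in an intron of cindr, an adaptor protein gene upstream of wts, which held 4 of the summits in its introns and a further one at its promoter. Which of these genes any site acts on was not measured.

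The other core genes had few sites. hpo (FBgn0261456, 2R, 19493996 to 19496856, minus strand) had a single IDR peak of 445 at 19501963 to 19502237, with 311 in replicate 1 and 145 in replicate 4, 667 bp from CG16926. sav (FBgn0053193, 3R, 23058609 to 23061304, minus strand) had 1 of 1713 at 23048668 to 23049070, with 1200 in replicate 1 and 504 in replicate 4, but 9764 bp from the gene and 631 bp from CG17121. Its second peak, of 770, lay 341 bp from CG17111. mats (FBgn0038965, 3R, 22421161 to 22423302, plus strand) had 1 of 267 at 22424117 to 22424263, with 185 in replicate 1 and 86.2 in replicate 4, in an intron of the neighbouring gene pinta. None of these 4 summits was inside the pathway gene or nearest to its TSS.

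Replicate 4 alone listed further sites near these small genes, which are named after their values were seen. Inside mats, 503 bp from a TSS at 22421708 to 22421950, it had a peak of 279, rank 2437 of its list, with the nearest replicate 1 summit 1537 bp away. Near sav it had 1 of 186, rank 3870, 54 bp from a TSS of p53, the damage response transcription factor gene, with the nearest replicate 1 summit 5289 bp away. Over the 10 windows, 12 of the 11045 strongest peaks of replicate 4 and 3 of those of replicate 1 had no IDR summit within 100 bp, and 1 site, at ex, accounts for 1 of each. Of these 15 entries, 6 had a summit of the other replicate's full list within 100 bp, including both at ex. The other 9, among them the mats and sav sites above, had none. The same counts were not made for all of each replicate's strongest peaks. The difference between 12 and 3 is thus not shown to be particular to these genes.

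Of the effectors, yki had its strong site at a shared promoter. yki (FBgn0034970, 2R, 24065975 to 24068485, minus strand) had a peak of 1600 at 24068483 to 24069021, rank 1199, with 1173 in replicate 1 and 426 in replicate 4, ranks 1172 and 1308. The summit was 344 bp upstream of yki and 72 bp from the TSS of Gpat4, a glycerolipid synthesis gene, in whose 5' UTR it lay. The other 4 peaks in the window were all at promoters of genes downstream of yki: eEF5 (459 at 60 bp), RpL12 (424 at 46 bp), RpL39 (278 at 25 bp) and Rap2l (277 at 2 bp). The first 3 encode parts of the translation machinery. These 3 ranked higher in replicate 4, at 4023, 3832 and 4602, than in replicate 1, at 6401, 7063 and 11195.

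sd had no IDR peak inside its 23313 bp. The gene (FBgn0003345, X, 15804370 to 15827682, plus strand) had 3 summits, 401 to 1217 bp upstream of its first TSS, in and beside PGRP-LE, a peptidoglycan sensor gene. The strongest, of 569 at 15803027 to 15803436, had 408 in replicate 1 and 158 in replicate 4 and lay 184 bp from the PGRP-LE TSS. The peak within 500 bp of sd, at 15803767 to 15804170, had a signal of 235, with 125 in replicate 1 and 96.0 in replicate 4, ranks 11333 and 7758. The third, of 225, shared its interval with the strongest. Of the 3, 1 was matched among the 11045 strongest of both replicates. Weaker peaks were present in the gene: the pooled list held 10 there that were not in the IDR list, the strongest of signal 182 at rank 11217, just past the last IDR rank of 11045.

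Both upstream activators had promoter peaks and peaks in introns. In kibra (FBgn0262127, 3R, 14697689 to 14724261, minus strand), all 9 summits inside the gene lay in the first of 8 introns. The strongest was 1460 at 14714518 to 14714942, with 1102 in replicate 1 and 373 in replicate 4, ranks 1290 and 1603. Another of 1364 at 14721974 to 14722295, 2122 bp downstream of the TSS, had 976 and 393 in replicates 1 and 4. The promoter peak, 131 bp upstream at 14724266 to 14724543, had a signal of 794, with 575 in replicate 1 and 221 in replicate 4, ranks 2986 and 3204. Of the 18 kibra peaks, 16 were matched among the strongest of both replicates.

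Most kibra sites outside the gene lay at its neighbours. Meltrin, a metalloprotease gene at the 3' side, was the gene nearest to 5 of the flank summits, led by an intronic one of 1084, and CG7530 was nearest to 3 on the other side, led by 760. The median distance between neighbouring summits was 1575 bp in the kibra window and 1365 bp in the wts window, against 3967 bp over the arms.

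ex (FBgn0004583, 2L, 431227 to 448701, plus strand) had 8 IDR peaks, 5 of them upstream. The promoter peak at 430936 to 431178, 193 bp upstream, had a signal of 609, with 396 in replicate 1 and 230 in replicate 4. A peak of 651 lay 993 bp upstream, with 497 and 155 in replicates 1 and 4. The strongest, 1063, was in the third of 5 introns at 440914 to 441298, 9880 bp downstream of the TSS and 1568 bp from a non-coding RNA gene annotated within ex. It had 834 in replicate 1 and 227 in replicate 4. Of the 8, 5 were matched among the strongest of both replicates.

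A further ex site was strong in each replicate but in neither of the combined lists as analysed here. Replicate 1 had a peak of 1239 at 441932 to 442285, rank 1064, and replicate 4 one of 377 at 441977 to 442247, rank 1574, with summits 12 bp apart inside ex. In their own lists both were stronger than the peaks matching the strongest IDR site of ex. The nearest pooled or IDR summit was 1002 bp from that of replicate 1. Over the genome, 8844 of the strongest replicate 1 peaks had a match among the strongest of replicate 4, and 85 of these (0.961%) had no IDR summit within 100 bp. The ex site had the highest replicate 1 rank of the 85. It was picked out after its values were seen, and why the combined lists lack it was not tested.

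Both cadherin genes had their strongest site upstream. ft (FBgn0001075, 2L, 4198404 to 4221796, minus strand) had no IDR summit inside its 23393 bp, 6 upstream and 1 beyond its end. The strongest, 1186 at 4222939 to 4223296, was 1314 bp upstream, with 919 in replicate 1 and 265 in replicate 4. The promoter peak, 397 at 4222215 to 4222399, was 432 bp upstream, with 304 in replicate 1 and 104 in replicate 4. All 7 ft peaks were matched among the strongest of both replicates.

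ds carried the strongest site whose nearest TSS was that of the pathway gene itself. ds (FBgn0284247, 2L, 640013 to 714983, minus strand) is the longest gene of the list, at 74971 bp. Its peak of 2334 at 715375 to 715739, rank 644, was 582 bp upstream and so just past the promoter limit, with 1803 in replicate 1 and 538 in replicate 4, ranks 573 and 906. Another of 757 lay 3657 bp upstream, with 534 and 223 in replicates 1 and 4. The 3 summits inside ds were all in the second of 11 introns, at 333 to 519. A peak of 371 among them, at 669269 to 669481, had 258 in replicate 1 and no replicate 4 peak within 100 bp, the only IDR peak of the 67 with a replicate missing.

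Most of the 67 peaks were matched in both replicates, but with a lower rank correlation than all IDR peaks. Within 100 bp of the summit, 56 (83.6%, exact 95% interval 72.5 to 91.5) had a match among the 11045 strongest peaks of both, against 79.6% of all IDR peaks. Across the 66 peaks with a match in both full lists, signal correlated with a Spearman coefficient of 0.786, against 0.872 for all IDR peaks. These peaks come from the same 2 libraries, and the IDR list was itself made from them. Replicate 4 gave the better rank for 14 of 45 distal peaks, 7 of 15 peaks at promoters of other genes and 3 of 6 own promoter peaks. The median ratio of replicate 1 to replicate 4 signal was lower at promoter peaks (2.38) than at distal ones (2.60). Over all IDR peaks it was also lower at promoter peaks (2.33) than at distal ones (2.50).

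**Figure D4:**
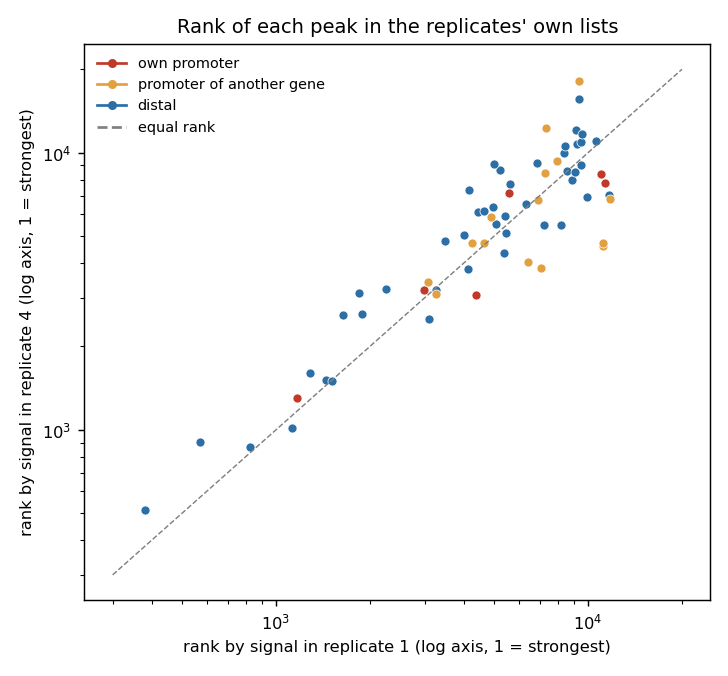
Rank by signal of each peak in the list of replicate 1 (x axis) and of replicate 4 (y axis), both on log axes, for the 66 peaks matched in both, coloured by position, with equal rank dashed. Strong peaks lie close to the line and weak ones scatter more. Below it, with a better rank in replicate 4, lie 14 distal peaks, 7 at promoters of other genes and 3 own promoter peaks.

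Many peaks lay nearer to another gene's TSS than to one of the pathway gene. Of the 67, 22 had a TSS of the pathway gene itself as the nearest one, 8 of them at kibra, 5 at wts and 3 each at ex, ft and ds, and the other 45 lay nearer to another gene. Of these 45, 32 were in the flanks and 13 inside the pathway gene itself, such as the wts sites nearest to the microRNA gene mir-1013. The same split was not counted for the windows of all protein-coding genes, so it is not shown to be particular to the list. At the limit of 10 kb, the last peaks included were 9795 bp from wts (signal 231), 9764 bp from sav (1713) and 9663 bp from ex (299). The first ones left out were 10860 bp from wts (2064), 11961 bp from sav (661), 11389 bp from ex (616) and 10321 bp from ft (255).

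Summits at the Hippo pathway genes lay in dips of GC content, as did those of the whole list. The 101 bp around the 67 summits had 30.4% GC ± 7.11 (SD over peaks) and windows of that width 500 bp to either side 43.7% ± 6.07, and 59 of the 67 (88.1%) had less GC at the summit. Over all IDR peaks the values were 29.8% ± 7.99 and 43.2% ± 7.18, and 88.3%. Whether base composition bears on where peaks were called was not tested.

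**Figure D5:**
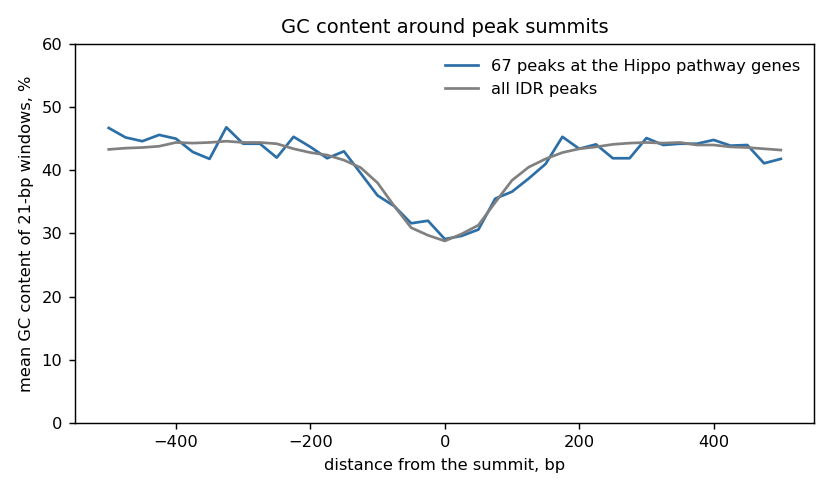
Mean GC content of 21-bp windows (y axis) by distance from the summit (x axis) for the 67 peaks at the Hippo pathway genes and for all IDR peaks. Both lines fall to about the same low at the summit, 29.1% and 28.8%, with values above 40% some 200 bp away.

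Of the 67 peaks, 24 (35.8%, exact 95% interval 24.5 to 48.5) held at least 1 of 11 short motifs, against 25.9% of all IDR peaks. In the flanking windows 500 bp away the shares were higher, 53.0% for the 67 peaks and 43.1% for all. Both strands were read, in the 101 bases centred on each summit. For the family of gem, only a core shared by Grainyhead and CP2 factors and its palindrome were among the motifs. No other form of a CP2 site was searched, so the counts for the core and palindrome do not show that gem's own site is rare. The core ACCGG shared by Grainyhead and CP2 factors was in 3 peaks (4.48%, exact 95% interval 0.933 to 12.5), against 2.32% of all IDR peaks and 5.22% of the flanking windows of the 67. Over all IDR peaks this core was more common in the flanking windows (6.35%) than at the summits. With the strongest peaks of 1 replicate in place of the IDR list, the count was 6 without replicate 1 and 2 without replicate 4. The 3 IDR peaks were the ex peak 993 bp upstream of its TSS and the yki-window peaks at eEF5 and RpL39. Its palindrome AACCGGTT, which contains that core, was in none of the 67, which allows a share of up to 5.36% by the exact interval, and in 0.244% of all.

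The Sd and TEAD motif GGAATG was in 5 peaks (7.46%, exact 95% interval 2.47 to 16.6), against 3.10% of all IDR peaks and 11.9% of the flanking windows of the 67. These were 1 in the first intron of wts, 1 in its 3' UTR, 1 in the first intron of ex and the peaks at eEF5 and Rap2l. The share at summits was thus below that of the flanks, in these peaks as in all (4.93% of flanking windows). A match is a description of the sequence and not evidence of a bound site.

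The other motifs varied in how common they were. TATCGATA, read by DREF and BEAF-32, was in 3 peaks (4.48%, all IDR peaks 0.634%), those at the promoters of kibra, RpL39 and Rap2l, and its inner part ATCGAT in 5 (7.46%, all 3.04%). Without replicate 1 these counts were 5 for TATCGATA and 9 for ATCGAT, and without replicate 4 they were 2 and 3. GGTCACAC, the M1BP motif, was in 1 (1.49%, all 0.317%), the sd promoter peak, and in none without replicate 4. GCCAT, of the Polycomb factor Pho, was in 8 (11.9%, all 10.9%), among them the promoter peak of ex and the strongest peaks of kibra and ds. GAGAG, of GAGA factor, was in 3 (4.48%, all 6.90%) and CAGGTA, of the early activator Zelda, in 3 (4.48%, all 1.76%), 1 of them the strong yki peak. TGACTCA, of AP-1, was in 2 (2.99%, all 0.733%) and the E-box CACGTG in none (all 0.380%). In the flanking windows of the 67, TATCGATA (0.746%), ATCGAT (1.49%), CAGGTA (1.49%), TGACTCA (0.746%) and GGTCACAC (0%) were less common than at the summits. GCCAT (23.9%), GAGAG (17.2%) and CACGTG (2.24%) were more common there. For CAGGTA and TGACTCA the direction was reversed over all IDR peaks, with more in the flanks (2.18% and 1.00%) than at the summits (1.76% and 0.733%). With 67 peaks these shares have wide intervals, and no motif was tested against the rest.

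Peaks inside the gene itself were present at 4 of the 10 genes, wts, ex, kibra and ds, against 17.3% of protein-coding genes. These 4 are 4 of the 6 genes of the list longer than 10 kb, the others being sd and ft. The other 4 genes, all shorter, hpo, sav, mats and yki, had none. sd (23313 bp) and ft (23393 bp) were longer than wts (16995 bp) and ex (17475 bp), yet had no summit inside.

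Other genes of the pathway were taken from a list of 39, 1 of them non-coding, of which 17 (43.6%) had an own promoter peak, beside the 24.6% of protein-coding genes, and 36 (92.3%) had a peak in the gene or within 10 kb, beside 74.6% of protein-coding genes. Of 15 upstream and junctional regulators 7 had a promoter peak. They were led by app, a palmitoyltransferase gene of the Ft branch (1611, with 1113 in replicate 1 and 496 in replicate 4), Mer, the fly Merlin (1500, with 1086 and 419), Schip1 (694) and dco, a casein kinase gene (663). No promoter peak was listed for jub, which inhibits Wts at junctions, or fj, a kinase acting on Ft and Ds. Of 8 kinase and phosphatase complex genes 3 had one, Sik3 at 523, hppy at 277 and par-1 at 251, and Tao, which activates Hpo, and msn had none.

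Nuclear partners and targets had more IDR peaks per window, by median, than the other groups. Of 7 nuclear partners of Yki and Sd 4 had a promoter peak: E2f1 (934), Hipk (910), mask (463) and Tgi (404), the last encoding a corepressor that binds Sd. Wbp2 and hth had none, although hth had 31 IDR peaks in its window. Of 9 reported target genes 3 had one, namely dlp at 1737, the microRNA gene mir-ban (bantam) at 1277 and Diap1, the inhibitor of apoptosis, at 302. CycE had none but had a peak of 3269 in its window, and Myc had none with 12 peaks in its window. The median number of IDR peaks per window was 8 for the targets, 6 for the nuclear partners, 3.50 for the kinase and phosphatase genes and 3 for the upstream regulators, against 2 for all protein-coding genes. These groups differ in gene length and spacing, and the group medians were not set against window length or tested.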

How the data were processed

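ChIP-seq peak lists of 2 biological replicates of 1 group were used. Per the listings deposited with the samples, peaks were called for each replicate and for both pooled, each with a control alignment as further input, and the IDR list was made from these 3, on assembly dm6. The peak caller, aligner and IDR threshold are not given in the sources used here. Deposited columns were the signal value of each peak and a −log10 q-value. Because 9720 of 11045 IDR peaks shared the top q-value, ranks were taken from the signal.

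Genes and TSSs (18164 genes, 23581 TSSs, transposable elements left out) came from Ensembl release 115 (BDGP 6.54) and sequence from the RefSeq release 6 genome. The lists name the same build, and no peak ended beyond its arm. Coordinates are 1-based. Summits were matched within 100 bp, promoters taken as 500 bp from a TSS and motifs searched within 50 bp of summits. Intervals are exact Clopper-Pearson 95% and cover counting error only. Values were computed with Python 3.11.15 and scipy 1.17.1, and the functions were tested on simulated peaks. The members and lists were chosen with earlier results of these data known, so no test was made, and shares over all genes or IDR peaks are given for the main counts. All 10 members were named, each with its strongest and its strongest own promoter peak. Of the other pathway genes up to 4 per group with the strongest promoter peak, and up to 2 without one, were named. Of the 39, 2 symbols were respelled as annotated (dachs and Hipk).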

Additional observations from a re-analysis of the deposited data

How the results depend on the processing

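No paired analysis was possible because the series has 1 group and no result comes from a test. Of 67 alternative values for 10 results, 44 stayed within the limits set. These were 1.5 times for counts and densities, the exact interval for the promoter share and the SD of the replicate medians (130) for the median signal. That SD comes from 2 medians, 311 for replicate 1 and 128 for replicate 4, each on the scale of its own list. It is therefore a loose limit and not a measure of replicate spread. In the stronger 5522 IDR peaks there were 33 peaks, 0.840 per 10 kb, with a median signal of 757, and all 33 were matched in both replicates. Of these peaks, 13 held a motif and 11 were nearest to the gene's own TSS. An own promoter peak was left at 3 genes of the list and at 11 other pathway genes. With all pooled peaks there were 137 peaks, 3.487 per 10 kb, a median signal of 177, 49 with a motif and 46 nearest to the own TSS. In the gene body alone there were 24 peaks at 4 genes, 21 matched, 4.17% at promoters, 9 with a motif and 11 nearest to the own TSS. Promoters of 250 bp left 3 genes, and motif windows of 25 and 100 bp gave 11 and 38 peaks with a motif. Each of these settings changes how many peaks, how much sequence or which distances are searched. Without replicate 1 and without replicate 4 the median signal was 128 and 316, on the scale of the remaining replicate. The peaks then numbered 73 and 65, at 1.858 and 1.654 per 10 kb, and 6 and 5 genes had an own promoter peak. The share of all protein-coding genes with such a peak was counted in the main setting only. The alternative promoter counts thus have no share to be set beside. Of 88 alternative counts for single motifs, 51 were within 1.5 times. These include every count for AACCGGTT and CACGTG, which were 0 in the main setting and in all alternatives. Such counts show nothing about stability. Depth is unknown, so a promoter without a listed peak is not shown to be unbound.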
